A study of Homo sapiens with 6 samples.

Results

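The transcriptional co-activators YAP and TAZ, their TEAD partners, 2 proteins that restrain them and 4 widely used target genes were followed through SPOP knockdown in prostate and renal carcinoma cells. These 10 genes, of 24551 gene symbols measured, were chosen by name from what is known of the pathway: YAP1, WWTR1 (which encodes TAZ), TEAD1, TEAD4, LATS2, AMOTL2, CTGF (now also CCN2), CYR61 (now also CCN1), ANKRD1 and AXL. All 10 passed the filter of a mean of at least 1 FPKM (fragments mapped to a gene, scaled by transcript length and library size) over the 6 libraries, as did 11865 genes in all.

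RNA-Seq libraries were made from the prostate carcinoma line DU145 and from the renal cell adenocarcinoma line 769-P. Each line gave a library from cells transfected with a negative control siRNA (NC) and a library for each of 2 siRNAs against SPOP (called siRNA 1 and siRNA 2), so both lines had 1 control and 2 knockdown libraries. SPOP is the substrate receptor of a CUL3 ubiquitin ligase. The comparison asked which genes respond to its loss in each line, and all 6 libraries came from transfected cultures of established lines. The 2 lines were kept in different media, so that line and medium cannot be told apart. The siRNA libraries served as the replicates, although nothing in the labels says which libraries came from separate cultures, and the p-values below measure only the spread between these libraries.

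In the Hippo pathway, the kinases MST1 and MST2 with SAV1 activate LATS1 and LATS2, which phosphorylate YAP and TAZ and keep them out of the nucleus. Unphosphorylated YAP and TAZ enter the nucleus, where they have no DNA-binding domain of their own and act through TEAD1 to TEAD4 on genes such as CTGF, CYR61 and ANKRD1. The pathway responds to cell density, attachment and stretch, and several of its targets, including LATS2 and AMOTL2, feed back to restrain it. Much of this control acts on protein phosphorylation and location, which mRNA levels do not measure.

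TEAD proteins bind the element GGAATG, which reads CATTCC on the other strand. This element was searched, on both strands, in the 250 bases before the annotated start of each gene in the RefSeq promoters of GRCh38.p14, where 7 of the 10 genes had an entry. TEAD1, TEAD4 and CYR61 had none. At least 1 copy stood before YAP1, CTGF, ANKRD1, 1 of 2 starts of AMOTL2 and 1 of 2 starts of AXL, whereas WWTR1 and LATS2 held none. Of 34788 distinct RefSeq promoter windows of that length, 11.9% held at least 1 copy, 0.946% at least 2 and 0.0834% at least 3. CTGF held 3 copies and ANKRD1 held 2, and these windows are shown because CTGF had the widest gap between the lines and ANKRD1 the widest between the siRNAs in DU145. Each is printed 5′ to 3′ on the strand of its gene, with every GGAATG in capitals. The CTGF window is chr6:131951373-131951622 on the minus strand, and the ANKRD1 window is chr10:90921088-90921337 on the minus strand.
CTGF: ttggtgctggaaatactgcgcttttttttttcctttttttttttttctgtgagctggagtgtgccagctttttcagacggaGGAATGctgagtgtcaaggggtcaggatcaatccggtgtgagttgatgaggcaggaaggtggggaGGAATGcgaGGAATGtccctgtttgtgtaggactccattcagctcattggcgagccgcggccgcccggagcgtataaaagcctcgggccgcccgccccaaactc
ANKRD1: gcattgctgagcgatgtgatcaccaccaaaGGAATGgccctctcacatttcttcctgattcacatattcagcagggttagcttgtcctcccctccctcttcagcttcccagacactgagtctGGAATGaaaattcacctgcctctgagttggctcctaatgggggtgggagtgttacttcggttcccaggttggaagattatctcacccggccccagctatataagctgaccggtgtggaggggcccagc
The CTGF copies began 169, 104 and 95 bases upstream of the start, and the last 2 were close together. The ANKRD1 copies began 220 and 128 bases upstream. The pattern TGANTCA, with any base at N, is broader than the AP-1 element, which has C or G there. Searched in the same windows, it occurred only in that of ANKRD1 among the 7 genes, as TGATTCA, and 6.59% of all windows held it. A match describes the letters of the window and does not show that a TEAD protein binds there.

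SPOP mRNA was 16.1 FPKM in the control library of DU145 and 2.77 and 2.96 FPKM after siRNA 1 and siRNA 2, and it was 11.6, 1.53 and 1.39 FPKM in the same order in 769-P. Every siRNA library was below its control, which matched the labels. In the fit across genes the differences were −2.15 and −2.35 on the log2 scale, with limma adjusted p of 0.134 in DU145 and 0.0948 in 769-P, so that even the targeted gene did not pass. A single comparison of 1 control with 2 siRNA libraries cannot go below p = 0.333 in an exact two-sided permutation test. The DU145 control and the 769-P siRNA 2 library stood apart from the others. Of 366 olfactory receptor genes, 287 and 237 had values above 0 there, against 3 to 5 in the other 4 libraries. The means over these genes were 0.345 and 0.227 FPKM, and their cause was not tested. Values with these means subtracted are given below for TEAD1 and CTGF only. Of the markers examined, 769-P had all 6 renal tubule genes at 1 FPKM or more. DU145 had all 5 epithelial genes, whereas the prostate luminal genes KLK3, KLK2 and HOXB13 were at 0.312 FPKM or below. Stromal, endothelial and blood cell markers reached 1 FPKM for 2 of 10 genes in every library (COL1A1 and CD68), and DCN and PECAM1 were listed at 0 throughout. The summed level of the 10 markers was 24.0, 34.3 and 40.4 FPKM in the DU145 control, siRNA 1 and siRNA 2 libraries and 56.4, 72.6 and 82.2 FPKM in those of 769-P, lowest in the control of each line. CD68 made up most of it, and COL1A1 was 1.71, 9.68 and 7.36 FPKM in 769-P, ratios to control of 5.67 and 4.31. The part of these markers in the results was not tested.

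YAP1, on chromosome 11 from 101981178 to 102104155 (GRCh37, plus strand), encodes the co-activator YAP. Its level was 19.7 FPKM in the DU145 control, 37.3 after siRNA 1 and 28.7 after siRNA 2. The 769-P levels were 9.78, 17.8 and 12.2 FPKM in the same order. Both siRNA libraries of each line lay above their control, and siRNA 1 gave the higher level in both lines. Against the control the differences on the log2(FPKM + 1) scale were 0.89 and 0.52 in DU145 and 0.81 and 0.29 in 769-P, and all 4 kept their sign under each scaling tried. The limma estimates of 0.71 (SE 0.32) in DU145 and 0.55 (SE 0.32) in 769-P did not pass, with adjusted p of 0.801 and 0.733. In bulk samples such as these, fewer cells of a type and less RNA per cell cannot be told apart.

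WWTR1, on chromosome 3 from 149235022 to 149454501 (minus strand), encodes TAZ, the paralog of YAP. Its level was 32.5, 27.5 and 43.8 FPKM in the DU145 control, siRNA 1 and siRNA 2 libraries. In 769-P it was 92.5, 49.2 and 70.4 FPKM. The DU145 siRNA libraries lay on either side of their control, at −0.23 and 0.42 on the log2 scale, whereas both 769-P siRNA libraries were below theirs, at −0.90 and −0.39. The 769-P estimate was −0.64 (SE 0.36, limma adjusted p = 0.733).

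FPKM is scaled by transcript length, so levels of the paralogs can be set side by side. YAP1 made up 37.7% of the summed YAP1 and WWTR1 level in the DU145 control, 57.5% after siRNA 1 and 39.6% after siRNA 2. Its share in 769-P was 9.57%, 26.6% and 14.8%. The share was above that of the control in all 4 siRNA libraries, most of all with siRNA 1, and WWTR1 was the more abundant of the pair in every library other than DU145 siRNA 1. The sum of both was 52.2, 64.9 and 72.5 FPKM in DU145 and 102, 67.1 and 82.6 FPKM in 769-P, so in 769-P the siRNA libraries had a lower sum than the control and in DU145 a higher one. These ratios were not tested.

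**Figure D1:**
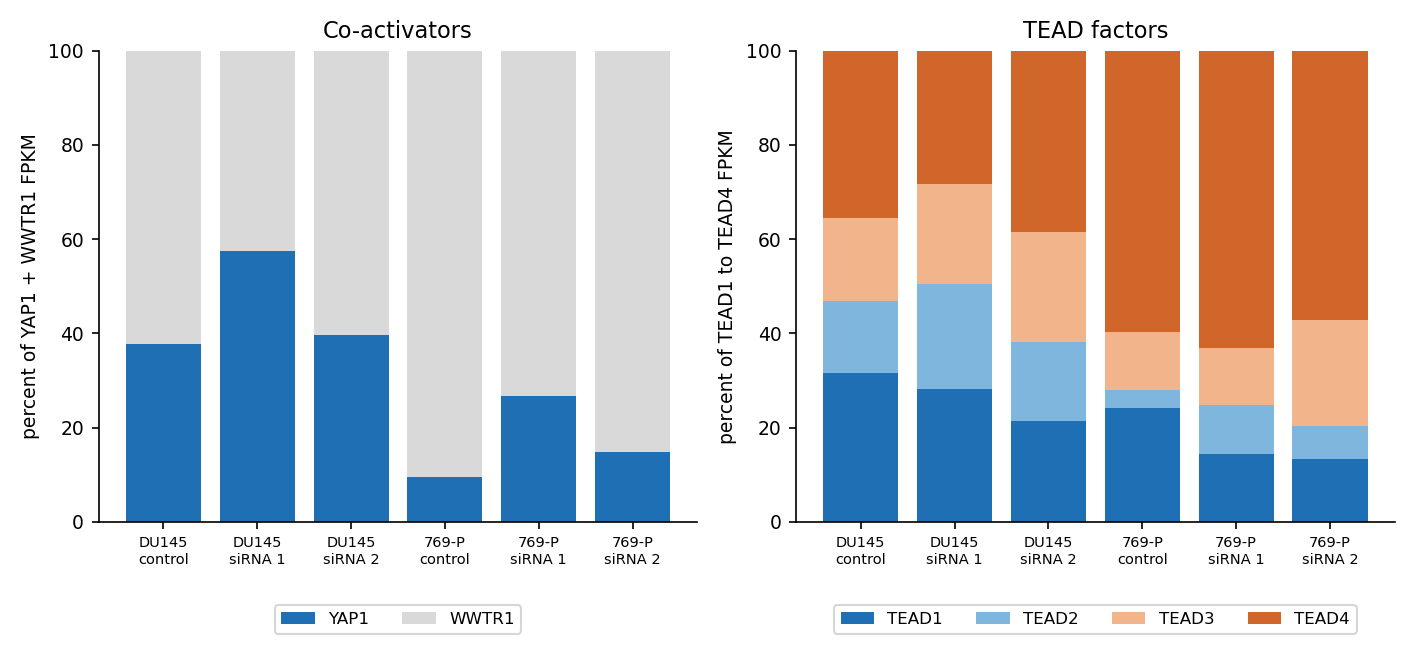
Share of summed FPKM, in percent, held by YAP1 and WWTR1 and by TEAD1 to TEAD4 in each of the 6 libraries. Each bar is 1 library, without error bars: YAP1 holds 9.57% to 26.6% of its pair in 769-P and 37.7% to 57.5% in DU145, and TEAD4 holds 57.1% to 63.2% of the TEAD sum in 769-P and 28.3% to 38.5% in DU145.

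TEAD1, on chromosome 11 from 12695968 to 12966284 (plus strand), is one of the DNA-binding partners. It was 17.5, 17.3 and 13.2 FPKM in the DU145 control, siRNA 1 and siRNA 2 libraries. In 769-P it was 9.77, 7.95 and 5.03 FPKM. Both siRNA libraries were below control in each line, although the DU145 siRNA 1 difference of −0.02 on the log2 scale became 0.01 with the olfactory receptor background subtracted. The other differences were −0.38 in DU145 and −0.27 and −0.84 in 769-P, and none passed a test.

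TEAD4, on chromosome 12 from 3068496 to 3149842 (plus strand), had the highest level of the 4 TEAD genes in every library. It was 19.7, 17.4 and 23.6 FPKM in DU145 and 24.1, 35.2 and 21.5 FPKM in 769-P. The lead was small in the DU145 control and siRNA 1 libraries, where TEAD1 was 17.5 and 17.3 FPKM. For TEAD4 the siRNA libraries lay on both sides of the control in each line, with log2 differences of −0.17 and 0.25 in DU145 and 0.53 and −0.16 in 769-P. Its share of the TEAD sum ran from 28.3% to 38.5% in DU145 and from 57.1% to 63.2% in 769-P. TEAD1 held 21.5% to 31.5% in DU145 and 13.3% to 24.2% in 769-P, with its highest share in the control of each line.

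TEAD2 and TEAD3, the paralogs outside the 10 genes, had differences of the opposite sign from TEAD1. TEAD2 was 8.5, 13.7 and 10.3 FPKM in DU145 and 1.55, 5.81 and 2.62 FPKM in 769-P. TEAD3 was 9.78, 13.0 and 14.3 FPKM in DU145 and 4.98, 6.72 and 8.55 FPKM in 769-P. Both were above control in all 4 siRNA libraries, where TEAD1 was at or below it, and these differences did not pass limma either. The summed TEAD level was 55.4, 61.3 and 61.4 FPKM in DU145 and 40.4, 55.7 and 37.7 FPKM in 769-P.

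LATS2, on chromosome 13 from 21547175 to 21635725 (minus strand), encodes a kinase that inactivates YAP and TAZ and is itself a YAP target. It was 8.53, 12.0 and 9.43 FPKM in DU145 and 7.80, 14.0 and 7.75 FPKM in 769-P. The level with siRNA 1 was the highest of each line, whereas siRNA 2 lay near the control, at 0.13 and −0.01 on the log2 scale, and these small differences were −0.00 and 0.10 after quantile normalization. Its paralog LATS1 was 5.57, 4.43 and 3.33 FPKM in DU145 and 4.79, 3.60 and 3.13 FPKM in 769-P, below control in all 4 siRNA libraries. The LATS2 to LATS1 ratio was 1.53 in the DU145 control and 2.71 and 2.83 with the siRNAs, and it was 1.63, 3.88 and 2.47 in 769-P. The ratio was thus higher than that of the control in every siRNA library.

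AMOTL2, on chromosome 3 from 134074189 to 134094321 (minus strand), encodes an angiomotin family protein that binds YAP and holds it in the cytoplasm, and its transcription is induced by YAP. It was 57.2, 70.2 and 56.6 FPKM in DU145 and 44.2, 40.3 and 30.7 FPKM in 769-P. The 769-P siRNA libraries were both below control, at −0.13 and −0.51 on the log2 scale, and those of DU145 were at 0.29 and −0.02.

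**Figure D2:**
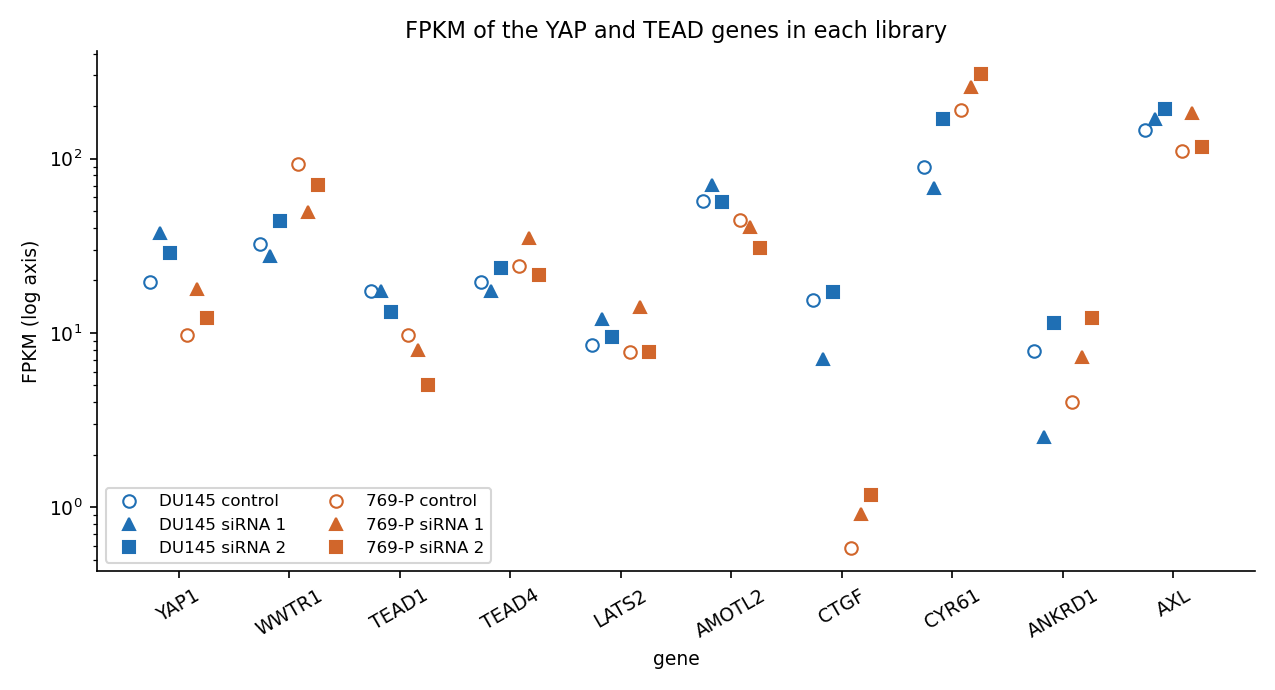
Level of the 10 genes in each of the 6 libraries, in FPKM on a log axis. Each point is 1 library (control, siRNA 1 or siRNA 2) of DU145 or 769-P: CTGF shows the widest gap between the lines, with 7.06 to 17.1 FPKM in DU145 and 0.587 to 1.18 FPKM in 769-P.

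CTGF, on chromosome 6 from 132269316 to 132272512 (minus strand), encodes a secreted matricellular protein and is a widely used readout of YAP and TEAD activity. It was 15.5 FPKM in the DU145 control, 7.06 after siRNA 1 and 17.1 after siRNA 2. The 769-P levels were 0.587, 0.916 and 1.18 FPKM in the same order. The DU145 siRNA libraries lay on opposite sides of the control, with log2 differences of −1.03 and 0.13, and the latter was −0.01 after quantile normalization. Both 769-P siRNA libraries were above control, at 0.27 and 0.46, on a scale that understates changes at such low levels. The siRNA 2 value was 0.30 with the olfactory receptor background of that library subtracted.

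CYR61, on chromosome 1 from 86046444 to 86050272 (plus strand), encodes a related matricellular protein. It was 89.0, 68.2 and 169 FPKM in DU145 and 189, 258 and 304 FPKM in 769-P. Unlike CTGF, it was abundant in both lines, at percentiles 93.6 and 97.4 of tested genes in the controls of DU145 and 769-P. CTGF stood at percentiles 64.1 and 8.24. The CYR61 to CTGF ratio was 5.75, 9.66 and 9.91 in the DU145 libraries and 322, 281 and 258 in the 769-P libraries.

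ANKRD1, on chromosome 10 from 92671853 to 92680844 (minus strand), encodes an ankyrin repeat protein and is a direct YAP target in many cell types. It was 7.90, 2.54 and 11.4 FPKM in DU145, where siRNA 1 lay below the control and siRNA 2 above it. In 769-P it was 4.0, 7.27 and 12.1 FPKM, with both siRNA libraries above the control by 0.73 and 1.39 on the log2 scale. The 769-P estimate of 1.06 (SE 0.75) had a limma adjusted p of 0.759.

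AXL, on chromosome 19 from 41725128 to 41767671 (plus strand), encodes a receptor tyrosine kinase that YAP induces in several carcinomas. It was 146, 168 and 193 FPKM in DU145 and 111, 183 and 116 FPKM in 769-P. All 4 siRNA libraries lay above their control, by 0.20 and 0.40 in DU145 and by 0.72 and 0.07 in 769-P on the log2 scale, and no difference passed a test.

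Reads were not stated to be counted by strand, and 6 of the 10 genes have an annotated gene on the opposite strand (AXL, CTGF, LATS2, TEAD1, WWTR1 and YAP1), among them LINC01013, LATS2-AS1 and WWTR1-AS1. Reads of these partners cannot be told apart from those of the listed genes.

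The levels of CTGF, CYR61 and ANKRD1 were not the same with the 2 siRNAs. In DU145, siRNA 2 gave 2.42 times the CTGF level, 2.48 times the CYR61 level and 4.47 times the ANKRD1 level of siRNA 1. In 769-P the same ratios were 1.28, 1.18 and 1.66. WWTR1, CTGF, CYR61 and ANKRD1 had a higher level with siRNA 2 than with siRNA 1 in both lines, as did 28.0% of all tested genes, and YAP1, TEAD1, LATS2 and AMOTL2 had a lower one in both, as did 31.6%. Past 1.5-fold, 4 of 10 genes were higher with siRNA 2 than with siRNA 1 in DU145 (WWTR1, CTGF, CYR61 and ANKRD1), against 10.9% of all tested genes, and none was lower, against 6.69%. In 769-P, ANKRD1 was higher past 1.5-fold, against 5.48% of tested genes, and TEAD4, LATS2 and AXL were lower, against 6.43%. With 1 library per siRNA and line these differences have no replicate check.

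Against the control, single siRNA libraries passed 1.5-fold for a few of the genes. With siRNA 1, DU145 had YAP1 higher (against 12.0% of tested genes) and CTGF and ANKRD1 lower (7.42%). With siRNA 2 it had CYR61 higher (11.3%) and none lower (3.73%). In 769-P, siRNA 1 had YAP1, LATS2, ANKRD1 and AXL higher (10.3%) and WWTR1 lower (9.84%). There siRNA 2 had CYR61 and ANKRD1 higher (6.15%) and TEAD1 lower (8.37%). The genes past this size thus differed between the siRNAs in each line, with ANKRD1 in 769-P as the exception.

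**Figure D3:**
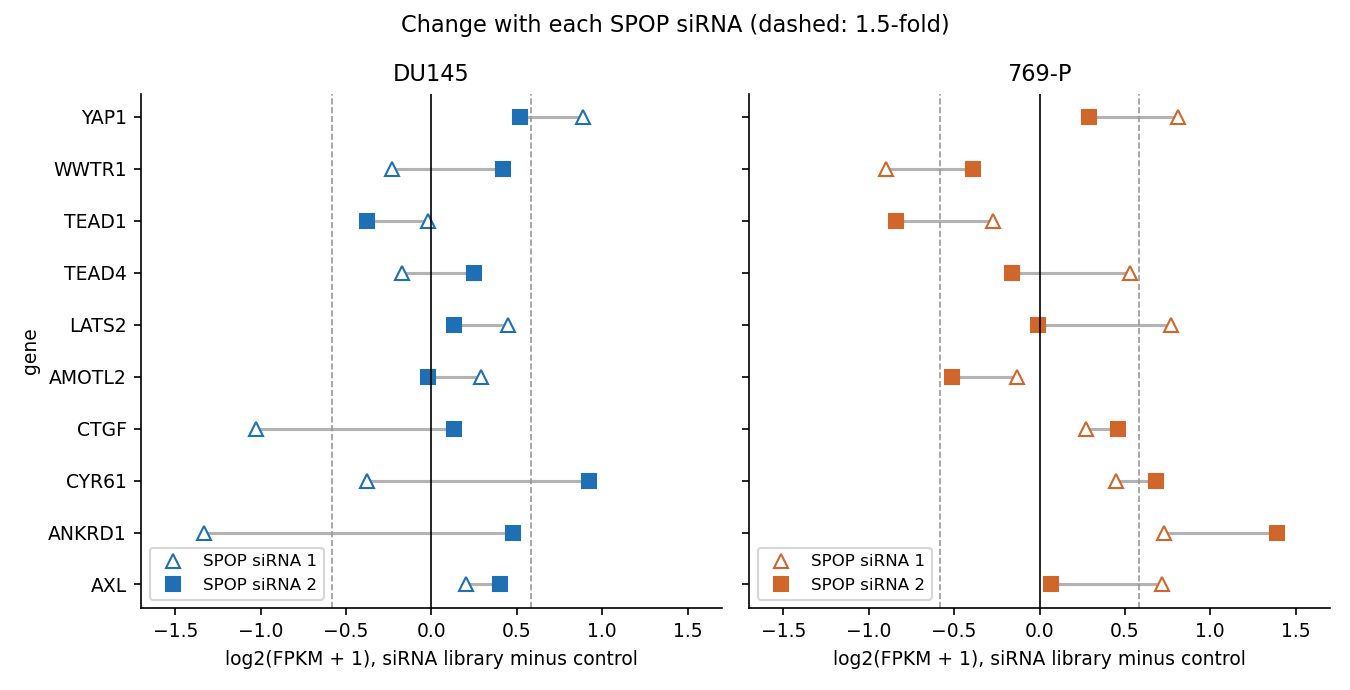
Difference of each siRNA library from the control of its line, on the log2(FPKM + 1) scale, for the 10 genes in DU145 and 769-P. Each point is 1 library: CTGF, CYR61 and ANKRD1 lie on opposite sides of 0 with the 2 siRNAs in DU145 and above 0 with both in 769-P, and YAP1 lies above 0 in all 4 libraries.

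Under the rule that both siRNAs pass 1.5-fold in one direction, none of the 10 genes was called in DU145, against 4.72% of tested genes higher and 1.19% lower. In 769-P, ANKRD1 alone was higher on the log2(FPKM + 1) scale, against 3.60%, and none was lower, against 3.73%. CTGF there was past 1.5-fold with both siRNAs only as a ratio of FPKM without the pseudocount. None passed 2-fold in DU145, against 0.666% higher and 0.329% lower, or in 769-P, against 0.657% and 0.565%. These shares are near those of all genes.

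By sign alone, 3 genes were above control with both siRNAs in DU145 (YAP1, LATS2 and AXL), against 43.5% of tested genes, 1 was below (TEAD1), against 22.2%, and 6 were split, against 33.7%. In 769-P, 5 were above (YAP1, CTGF, CYR61, ANKRD1 and AXL), against 31.5%, 3 were below (WWTR1, TEAD1 and AMOTL2), against 39.5%, and 2 were split, against 26.6%. YAP1 and AXL were above control in both lines, against 20.1% of tested genes, and TEAD1 was below in both, against 13.6%. The median difference over the 10 genes was −0.09 and 0.33 in the DU145 siRNA 1 and siRNA 2 libraries and 0.49 and 0.03 in those of 769-P, where the medians of all tested genes were 0.07, 0.12, 0.00 and −0.06.

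In the limma fit, the knockdown contrast called none of the 10 genes at an adjusted p under 0.05 in DU145, where 0.135% of tested genes did, or in 769-P, where 0.101% did. None passed at an unadjusted p under 0.05 either, against 6.27% and 6.97% of tested genes. For the difference in response between the lines, 0.169% of tested genes passed and none of the 10 did, each with an adjusted p of 0.999. At an unadjusted p under 0.05 none of the 10 passed and 2.74% of tested genes did. The fit had 2 residual degrees of freedom, and a p that misses the threshold does not show that the lines respond alike.

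The levels were then compared between the lines. Between the 3 DU145 and the 3 769-P libraries, 6 of 10 genes passed limma at an adjusted p of 0.05, against 45.5% of all tested genes, a share near that of all genes. Of the 6, 4 were higher in DU145 (YAP1, TEAD1, AMOTL2 and CTGF), against 29.4%, and 2 were higher in 769-P (WWTR1 and CYR61), against 16.1%. Over all genes this contrast split into 3483 higher and 1912 lower in DU145, which became 2743 and 2923 after quantile normalization, with the median of all genes moving from 0.16 to −0.05 on the log2 scale. The direction of all 6 genes held under quantile normalization. The same 6 genes were those whose libraries did not overlap between lines, where 35.1% of tested genes were higher in all DU145 libraries and 21.2% in all 769-P libraries. Groups of 3 and 3 libraries cannot go below p = 0.1 in an exact two-sided permutation test.

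CTGF had the widest gap, 2.83 (SE 0.33) on the log2 scale with a limma adjusted p of 0.00195. The mean of the DU145 libraries was 14.8 times that of the 769-P libraries, and the ratio of the controls was 26.4. CTGF was the only one of the 6 that passed when the control libraries alone were compared (11.7% of tested genes were higher in DU145 and 6.23% in 769-P by this contrast), at 3.38 (SE 0.58, limma adjusted p = 0.0186). That contrast sets 1 library against 1, and its SE and p rest on the spread of the siRNA libraries alone. The CTGF line difference passed in all 12 alternative settings (adjusted p 0.000749 to 0.0496). With a 769-P mean of 0.893 FPKM, CTGF reached the filter on mean FPKM only through DU145, and without the filter its limma adjusted p was 0.0496.

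CYR61 ran against it: 769-P had 2.30 times the DU145 level, a difference of −1.27 (SE 0.35, limma adjusted p = 0.0327), which passed in 9 of 12 alternative settings (adjusted p 0.00887 to 0.211). YAP1 was higher in DU145, at 28.6 ± 8.81 FPKM against 13.3 ± 4.14 (SD, n = 3 libraries each, limma difference 1.04, SE 0.21, adjusted p = 0.0118), and passed in 9 of 12 (adjusted p 0.00239 to 0.0889). WWTR1 was higher in 769-P, at 70.7 ± 21.6 FPKM against 34.6 ± 8.33 (limma difference −0.99, SE 0.24, adjusted p = 0.0226), and passed in 8 of 12 (adjusted p 0.00272 to 0.15). YAP1 and WWTR1 thus differed between the lines in opposite directions. Each SD here and for TEAD1 below spans the control and both siRNA libraries, whereas the limma SE and p rest on the spread of the siRNA libraries.

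TEAD1 was 16 ± 2.40 FPKM in DU145 and 7.58 ± 2.39 in 769-P (SD, n = 3 libraries each), a limma difference of 1.01 (SE 0.22, adjusted p = 0.0161) that passed in 8 of 12 settings (adjusted p 0.00322 to 0.105). AMOTL2 differed by 0.67 (SE 0.18, limma adjusted p = 0.0292) and passed in 7 of 12 (adjusted p 0.00901 to 0.131). TEAD4 (−0.38), LATS2 (0.06), ANKRD1 (−0.16) and AXL (0.34) did not pass, with limma adjusted p of 0.255, 0.875, 0.820 and 0.244. With 1 siRNA library left out, the calls depended on which. YAP1 was lost without DU145 siRNA 1 or 769-P siRNA 2 (limma adjusted p = 0.0745 and 0.0737), and CYR61 without 769-P siRNA 1 or siRNA 2 (0.151 and 0.184). WWTR1 was lost without DU145 siRNA 1 or either 769-P siRNA library (0.0885, 0.0758 and 0.134), and TEAD1 without either DU145 siRNA library or 769-P siRNA 2 (0.0952, 0.0612 and 0.0884). AMOTL2 was lost without any 1 of the 4 (0.112, 0.0636, 0.0704 and 0.131), and all 5 were lost without the filter on low values. From the siRNA libraries alone, YAP1, TEAD1, AMOTL2 and CTGF passed as higher in DU145 (against 25.4% of tested genes) and none passed as higher in 769-P (11.9%). Among the paralogs, TEAD2 (1.55, adjusted p = 0.00953) and TEAD3 (0.80, adjusted p = 0.0152) were higher in DU145 by the same limma contrast.

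The upstream kinase module was measured in 14 genes, all of them tested. None passed 1.5-fold with both siRNAs in DU145, against 4.72% of tested genes higher and 1.19% lower. Without the pseudocount, FPKM ratios were past 1.5-fold with both siRNAs for TAOK3 in DU145 (1.71 and 1.51) and STK4 in 769-P (0.620 and 0.653). These 2 were not called. In 769-P, 2 passed downward, against 3.73%: MOB1B, a LATS co-activator, at 2.96, 1.47 and 1.5 FPKM in the control, siRNA 1 and siRNA 2 libraries, and WWC2, a KIBRA family scaffold, at 10.1, 6.30 and 6.0 FPKM. None passed upward, against 3.60%. Both were also below control with both siRNAs in DU145, at 3.29, 2.11 and 2.30 FPKM for MOB1B and 4.07, 2.48 and 3.0 FPKM for WWC2. By sign, 6 of 14 were below control in all 4 siRNA libraries (STK3, SAV1, LATS1, MOB1B, WWC2 and FRMD6), against 13.6% of all tested genes, and STK3 and FRMD6 each had a value of −0.00 in 1 of these libraries. The median of the list was −0.04 in DU145 and −0.28 in 769-P, where those of all tested genes were 0.09 and −0.03. Between lines, limma called 2 of 14 higher in DU145, against 29.4% of all tested genes, and 3 higher in 769-P, against 16.1%. Those higher in DU145 were SAV1 (2.35, limma adjusted p = 0.00237) and the kinase TAOK3 (1.51, adjusted p = 0.00172). Those higher in 769-P were STK3 (−1.07, limma adjusted p = 0.0166), WWC1 (−1.47, adjusted p = 0.00374) and WWC2 (−1.0, adjusted p = 0.00637).

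Of 7 further partners of YAP and TEAD, 5 were tested and VGLL1 and VGLL3 were below the filter. None passed 1.5-fold with both siRNAs. Of all tested genes, 4.72% passed upward and 1.19% downward in DU145, and 3.60% and 3.73% in 769-P. TEAD2 in 769-P had FPKM ratios to control of 3.74 and 1.69, but the pseudocount of 1 reduced the second to 0.50 on the log2 scale. TEAD2, TEAD3 and VGLL4 were above control in all 4 siRNA libraries, against 20.1% of all tested genes. VGLL4, which competes with YAP for TEAD, was 6.63, 18.2 and 6.71 FPKM in DU145 and 6.22, 16.5 and 9.20 FPKM in 769-P, with its highest level under siRNA 1 in each line.

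Of 16 other YAP and TEAD targets, 14 were tested and FOXF2 and RBMS3 were below the filter. IGFBP3, a secreted binding protein for insulin-like growth factors, was 1.56, 7.04 and 16.6 FPKM in DU145 and 1.04, 4.57 and 2.83 FPKM in 769-P. It was the only listed gene to pass 1.5-fold upward with both siRNAs in both lines, and the share of all tested genes that did so was not counted. It passed 2-fold in DU145, against 0.666% of tested genes. Past 1.5-fold with both siRNAs, 2 of the 14 were higher in DU145, against 4.72% of tested genes, and none was lower, against 1.19%. In 769-P, 1 was higher, against 3.60%, and 1 was lower, against 3.73%. CCDC80 was called in DU145, at 1.20, 2.93 and 2.84 FPKM. In 769-P it was 0.162, 0.355 and 1.03 FPKM, with ratios to control of 2.19 and 6.38. These were not called because the pseudocount of 1 reduced the first to 0.22 on the log2 scale. The olfactory receptor means of the DU145 control and 769-P siRNA 2 libraries, 0.345 and 0.227 FPKM, are not subtracted from these values. F3 in 769-P had ratios of 2.14 and 2.53 and was not called either, with the first at 0.54 on the log2 scale. NT5E, the ecto-enzyme CD73, passed downward in 769-P, at 43.9, 21.8 and 20.2 FPKM, and was 68.6, 121 and 44.7 FPKM in DU145. None of these passed limma for knockdown. Between lines, 7 were higher in DU145 (F3, CRIM1, CCDC80, NT5E, DOCK5, ARHGEF17 and TGFB2) and 3 in 769-P (GADD45A, PTPN14 and NUAK2), against 29.4% and 16.1% of all tested genes. Of the 7, CCDC80 and TGFB2 passed the filter on mean FPKM only through DU145, so that their difference was partly fixed by the filter. F3, the coagulation tissue factor, had a difference of 2.94 (limma adjusted p = 0.00130). TGFB2 was 4.87 to 8.01 FPKM in DU145 and at most 0.0796 FPKM in 769-P. The median of the 14 was 0.84, beside 0.16 for all tested genes and 0.20 for the 10 genes.

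**Figure D4:**
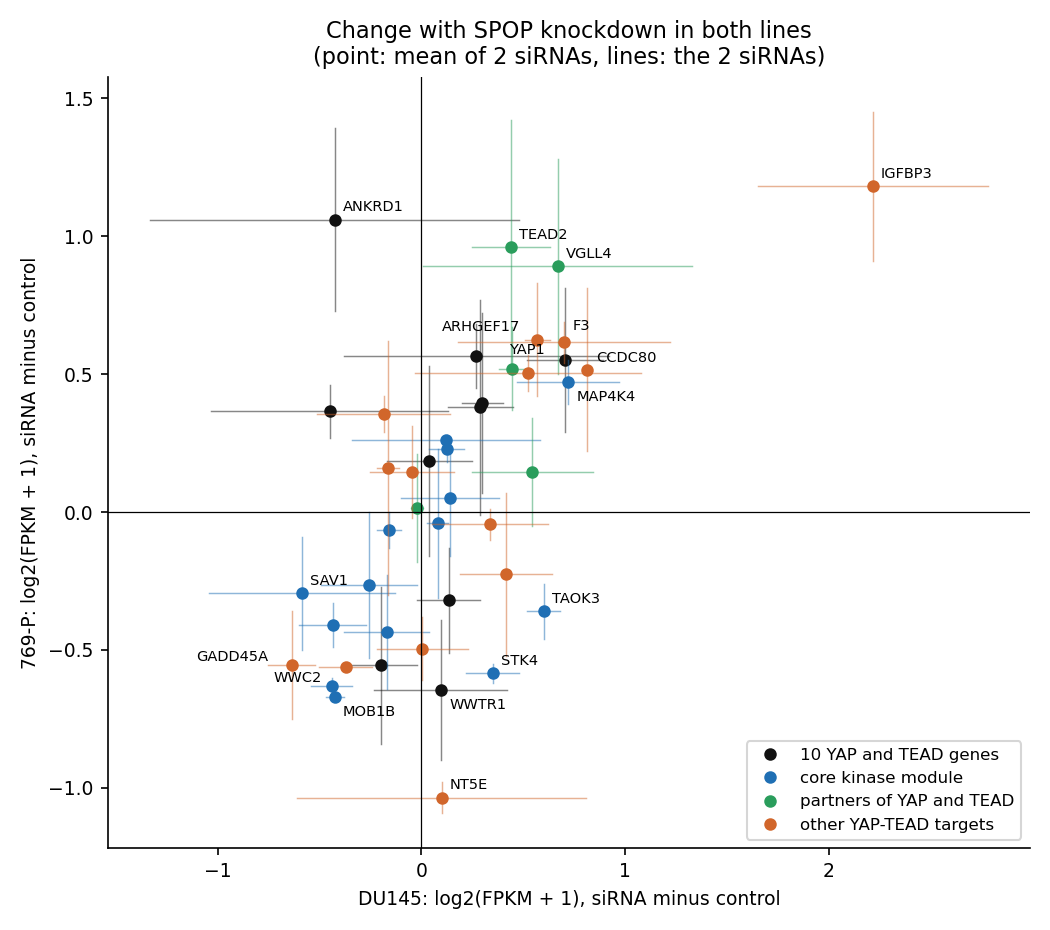
Mean difference from control over the 2 siRNAs in DU145 (x axis) and 769-P (y axis), on the log2(FPKM + 1) scale, for the 10 genes and the 3 further lists. Lines run between the values of the 2 siRNAs: IGFBP3 lies far to the upper right, and MOB1B and WWC2 lie below 0 in both lines.

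Over the 6 libraries, the genes whose log2 levels tracked YAP1 most closely were MRFAP1 (Pearson r = 0.9970), RNF10 (0.9963) and PP7080 (0.9962). For CTGF they were TIRAP (0.9984), CNNM2 (0.9983) and TNS4 (0.9983). With 6 points that share a line difference, 971 and 2000 genes exceeded r = 0.9, so that these names only describe the pattern.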

How the data were processed

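RNA-Seq was done by the authors on DU145 and 769-P cells, 1 library for each of NC, siRNA 1 and siRNA 2. Per the labels and the study's methods, poly(A) RNA was sequenced as paired ends, trimmed, mapped to hg19 with TopHat2 and quantified with Cufflinks, and FastQC and cutadapt are named. Tool versions and annotation were not given in the sources used here. The library kit and the number of replicates are described differently in the labels and the methods, and the labels were followed. The deposited values are FPKM, 26006 rows per library, with no counts, so that sequencing depth and the error of a single value are unknown.

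Rows of the same symbol were summed, giving 24551 genes. Values were used as log2(FPKM + 1), which understates changes of low genes, and tests covered the 11865 genes whose mean FPKM was 1 or more. Each siRNA library was set against its line's control, and genes were called where both siRNAs passed 1.5-fold (also 2-fold) in one direction. limma 3.58.1 in R 4.3.3 was fitted to 4 groups with an intensity trend and 2 residual degrees of freedom, and p-values were adjusted by Benjamini-Hochberg over all tested genes. The difference between lines weighted each library equally. The code was tested on simulated data. Some of the marker genes examined are not reported here. The 10 genes and all lists were chosen with earlier results of these data known. All 10 genes are named, with the genes of 3 further pathway lists that passed 1.5-fold with both siRNAs or limma, LATS1, TEAD2 and TEAD3 as paralogs, and the 3 genes most correlated with YAP1 and with CTGF. VGLL4, FRMD6 and the genes counted only by sign were named after their values were seen. Positions are from a GRCh37 annotation and promoters from RefSeq. Alternatives were another pseudocount, filters, scalings, background subtraction, handling of repeated rows, no trend, a replicate block and leaving out each siRNA library.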

Additional observations from a re-analysis of the deposited data

Results flagged for a closer look

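STK4, which encodes the Hippo kinase MST1, lay on opposite sides of its control in the lines: it was 5.72, 8.35 and 6.85 FPKM in the DU145 control, siRNA 1 and siRNA 2 libraries and 10.7, 6.61 and 6.96 FPKM in 769-P. The difference in response was 0.93 on the log2 scale, with a limma adjusted p of 0.999 and an unadjusted limma p of 0.0435, so it did not pass. TAOK3, which encodes a kinase upstream of MST1 and MST2, did likewise, at 5.67, 9.68 and 8.57 FPKM in DU145 and 2.63, 2.04 and 1.65 FPKM in 769-P, with a difference of 0.96, a limma adjusted p of 0.999 and an unadjusted limma p of 0.0431. Both were noted because every siRNA library of DU145 was above its control and every one of 769-P below. Genes picked by these signs tend to have a low p for this difference, so the unadjusted values are no separate support. Of all tested genes, 2.74% had an unadjusted limma p under 0.05 for it, and the share with this sign pattern was not counted.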

How the results depend on the processing

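The counts of the 10 genes past 1.5-fold with both siRNAs depend on which siRNA is kept. With 1 siRNA library left out, the count higher in DU145 was 1 to 1 (0 with both), lower in DU145 0 to 2 (0), higher in 769-P 2 to 4 (1) and lower in 769-P 1 to 1 (0), since fewer libraries then had to pass. Leaving out a control library leaves no comparison and was not run. Between lines, 4 genes were higher in DU145 and 2 in 769-P. Without a filter on low values these counts were 1 and 0, and from the control libraries alone 1 and 0. From the siRNA libraries alone, a setting chosen after seeing the data, 4 and 0 passed. With 1 siRNA library left out the counts were 1 to 3 and 0 to 2: without DU145 siRNA 1 they were 1 and 1, without DU145 siRNA 2 they were 2 and 2, without 769-P siRNA 1 they were 3 and 0, and without 769-P siRNA 2 they were 1 and 0. SPOP in DU145 stayed at −2.15 and passed without the filter (limma adjusted p = 0.0170).

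The sign of single values reversed under quantile normalization for the difference in response of YAP1 (−0.01), knockdown in DU145 of WWTR1 (−0.05), TEAD4 (−0.10) and AMOTL2 (−0.03), and the line difference of LATS2 (−0.14), and from the control libraries alone for the line difference of ANKRD1 (0.83). The cause was not tested. With 1 siRNA library left out, the DU145 knockdown value ran from −0.23 to 0.42 for WWTR1, −0.17 to 0.25 for TEAD4, −0.02 to 0.29 for AMOTL2, −1.03 to 0.13 for CTGF, −0.38 to 0.92 for CYR61 and −1.33 to 0.48 for ANKRD1, and that of 769-P from −0.16 to 0.53 for TEAD4 and −0.01 to 0.77 for LATS2. The difference in response ran from −0.10 to 0.41 for YAP1, −0.49 to 0.20 for TEAD4, −0.48 to 0.30 for LATS2, −0.94 to 0.35 for CYR61 and −0.42 to 0.23 for AXL, and the line difference from −0.20 to 0.31 for LATS2 and −0.76 to 0.45 for ANKRD1.

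The siRNA number was fitted as a replicate block, although the labels give it only as the number of an siRNA and do not say whether a culture or day was shared. The siRNA 2 minus siRNA 1 differences of the lines correlated at 0.27 across genes, which are not independent replicates. With the block, the line counts of the 10 genes stayed at 4 and 2, knockdown called none of them, and over all genes 18 passed in DU145, 14 in 769-P, 8 for the difference in response and 6310 between lines, beside 16, 12, 20 and 5395 without it. Over all genes, limma called 1186, 148 and 1202 for DU145, 769-P and their difference without the filter and 4, 10 and 3 with a mean of at least 5 FPKM. The difference count was 10 after quantile normalization and 0 with a pseudocount of 0.1. With 1 siRNA library left out these 3 counts ran from 0 to 30, 0 to 7 and 0 to 37, and the line count from 2788 to 4008. Without the filter, 1087 of the 1186 DU145 calls, 137 of the 148 in 769-P and 1025 of the 1202 for their difference were negative. In the main fit, 16 of 16, 11 of 12 and 13 of 20 were negative. The part of the olfactory receptor values of the DU145 control in these directions was not tested. Depth is unknown, so precision at the CTGF level of 769-P cannot be given.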
